A study of Mus musculus with 209 samples.

Results

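The 39 genes described here are interferon-stimulated genes, the genes that cells switch on when type I interferon binds its receptor. They were chosen as a list of symbols, of which all 39 were found among the 55011 genes of the count table. By role they were 4 IFIT genes, 6 genes of the OAS family, 2 Mx GTPases, 3 cytoplasmic RNA sensors, 6 genes of the ISG15 and ubiquitin system, 3 PARP genes, 10 other antiviral effectors and 5 further genes that interferon induces. The study asked what each of 3 injected inflammatory cytokines (IL1b, IL6 and TNFa) does to the RNA of immune cell types in the mouse, and it holds 209 libraries, each of 1000 cells sorted 2 times by flow cytometry from C57BL/6 mice aged 5 to 8 weeks.

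In the cytokine screen, mice received 5 ug of IL1b, IL6 or TNFa in 120 uL of PBS intravenously, or PBS alone, and cells were taken after 2 h. Its 14 cell types were, by title, macrophages (MFpc) and mast cells (MC) of the peritoneal cavity and, from the spleen, the myeloid types GN (neutrophils), Mo.6C+ (Ly6C+ monocytes), MFrp (macrophages of the red pulp), pDC (plasmacytoid) and DC.8+ (CD8+ dendritic cells) and the lymphoid types B.fo and MZB (follicular and marginal zone B cells), T.4 and T.8 (CD4 and CD8 T cells), Treg (regulatory) and Tgd (gamma-delta T cells) and NK cells. Each PBS group had 4 or 5 libraries, each cytokine group 2 or 3, and pDC none with IL1b. The tissue label reads peritoneal cavity for every screen library, which goes against the titles of the 12 spleen types, and the titles were followed. In a time course, spleen monocytes and peritoneal macrophages were taken 2, 4, 8 and 24 h after TNFa and 24 h after PBS, with 2 libraries per group. In the LPS experiment, spleen monocytes were taken from mice given 1 ng of LPS, a lipid of the bacterial cell wall, in 120 uL of PBS (3 libraries) or PBS alone (3 controls), and the time after LPS is not given in the sources used here. Whether 1 mouse gave several libraries is not labelled, so the p-values measure the spread between these libraries, which may be technical.

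Type I interferons signal through a receptor of the IFNAR1 and IFNAR2 chains, whose kinases JAK1 and TYK2 activate transcription factors. These factors bind the interferon-stimulated response element (ISRE) in front of many interferon-stimulated genes. Cells of the spleen also carry a resting level of these transcripts without infection, and the products act against viruses by sensing foreign RNA, blocking entry, degrading RNA, stopping translation or starving the virus of nucleotides.

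The sequences below show the ISRE core letters, GAAANNGAAA on either strand, in front of some of the members that held them. RefSeq promoter windows (GRCm38.p6, 250 bases before to 50 after the start) were present for 29 of the 39 members. Of these 29 members, 16 (55.2%) held the core in at least 1 window, against 1079 of the 27025 genes with a window (3.99%). Parp14, Usp18, Trim25, Cmpk2, Oasl2, Zbp1, Rtp4 and Mx1 were not among the 16, having no core in the window or no window. Each stretch is given 5' to 3' in the gene's direction and ends before the start site, and the capitals mark the match.
Isg15 (chr4:156200856-156200915, minus strand): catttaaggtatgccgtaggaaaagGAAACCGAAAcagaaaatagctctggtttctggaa
Ifit1 (chr19:34640779-34640838, plus strand): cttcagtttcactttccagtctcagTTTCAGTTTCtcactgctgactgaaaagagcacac
Ifit3 (chr19:34583348-34583407, plus strand): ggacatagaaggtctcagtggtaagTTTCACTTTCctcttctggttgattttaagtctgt
Rsad2 (chr12:26456538-26456597, minus strand): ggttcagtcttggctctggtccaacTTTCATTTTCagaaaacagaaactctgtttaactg
Oas1a (chr5:120907526-120907570, minus strand): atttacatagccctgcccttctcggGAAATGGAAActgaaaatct
Bst2 (chr8:71537568-71537627, minus strand): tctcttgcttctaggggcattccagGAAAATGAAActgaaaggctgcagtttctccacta
In Ifit1, Ifit3 and Rsad2 the match is on the opposite strand. The Isg15 window held 3 overlapping matches and the Ifit1, Ifit3, Oas1a and Bst2 windows 2 each. Ifit3b held the same pair of stretches as Ifit3. For comparison, the core TTCNNNGAA of the gamma-activated site (GAS) was found for 7 of the 29 members (24.1%) and 9.55% of genes with a window. The NF-kB core GGGNNTTTCC was found for 0 of the 29 and 1.89% of genes with a window. A match describes the letters in the window and does not show binding.

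Several members lie beside each other in the genome (GRCm38, GENCODE vM21). The 4 IFIT genes span chr19:34550694-34650009, and Oas1a, Oas1g, Oas2 and Oas3 lie on chromosome 5, as do Oasl1 and Oasl2 farther off. Exons of 11 members share bases with another gene, among them Dtx3l and Parp9, which overlap on opposite strands. Whether reads were counted by strand is not given in the sources used here, so the levels of these 11 are less certain, as are those of the near-identical pair Ifit3 and Ifit3b and of the related pair Oas1a and Oas1g.

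Library totals ran from 1094567 to 9291121 counts. The summed level of each cell type's own marker list, over its screen libraries, was above that in every PBS library of the other types, with 2 exceptions. The red pulp macrophage list summed to 12401 to 45524 CPM in MFrp and up to 16631 in MFpc, and the monocyte list to 8726 to 25647 in Mo.6C+ and up to 42738 in MFpc. Each own marker had counts in every library of its type. MFrp PBS libraries held 1235 to 50471 CPM of erythroid genes, most in libraries 1 to 3, so MFrp responses are also given without them. A lower level of an RNA in a sorted sample can mean fewer cells that make it or less RNA per cell, and these cannot be told apart.

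With PBS alone, monocytes and neutrophils held the highest levels of most members: 17 of 39 were highest in Mo.6C+ and 15 in GN, then 4 in pDC and 1 each in MC, MFrp and Tgd. How many of all genes were highest in each type is not given here, and some places were near ties. Dtx3l had a mean of 189.499 CPM in Mo.6C+ and 189.477 in GN, and Ifi35 158.6 in pDC and 156.1 in Mo.6C+. The level differed over the 14 cell types for 39 of 39 members, as it did for 92.8% of all genes tested. Bst2 (tetherin, which holds budding virus at the cell surface) is a known surface marker of pDC, and its PBS libraries there held 1571 to 1904 CPM (counts per 1000000), against 238 to 451 in DC.8+, the next highest, and 9.58 to 21.3 in GN, the lowest. The pDC libraries did not overlap those of any other type.

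Ifitm3, which blocks the fusion of virus with endosomes, was the member with the highest level per kb of exon in Mo.6C+ and in MFpc. Its mean was 4127 ± 48.7 CPM per kb (SD, n = 5) in Mo.6C+ and 2247 ± 209 in MFpc, and 0.860 in NK cells. Ifi27l2a, a small membrane protein of the Ifi27 family, led in GN at 1881 ± 309.8 CPM per kb and in Treg at 1549 ± 375, and was near 0 in MC. Over the members, the median level ran from 3.05 CPM per kb in MC to 43.3 in GN, with 31.9 in Mo.6C+.

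Against the mean of the other types, MFrp had 28 members higher and 4 lower (26.6% and 15.4% of all genes), Tgd 15 and 4 (22.1% and 9.33%), B.fo 6 and 14 (21.8% and 14.1%) and MC 3 and 30 (26.0% and 23.7%). The part of the erythroid-rich libraries in the MFrp count was not tested. Neighbours in the order of a gene's levels could still overlap. Oasl2, a member of the OAS family, ran from 982 to 1729 CPM in GN, above the 415 to 590.1 in Mo.6C+, while T.8, Treg, Tgd, T.4 and B.fo, between 13.6 and 24.9 CPM on average, overlapped each other. Zbp1, a sensor of Z-form nucleic acids, was highest in Mo.6C+ at 208 CPM, followed by the T cell types with means from 87.9 in T.8 to 109.96 in Treg, whose ranges overlapped.

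**Figure D1:**
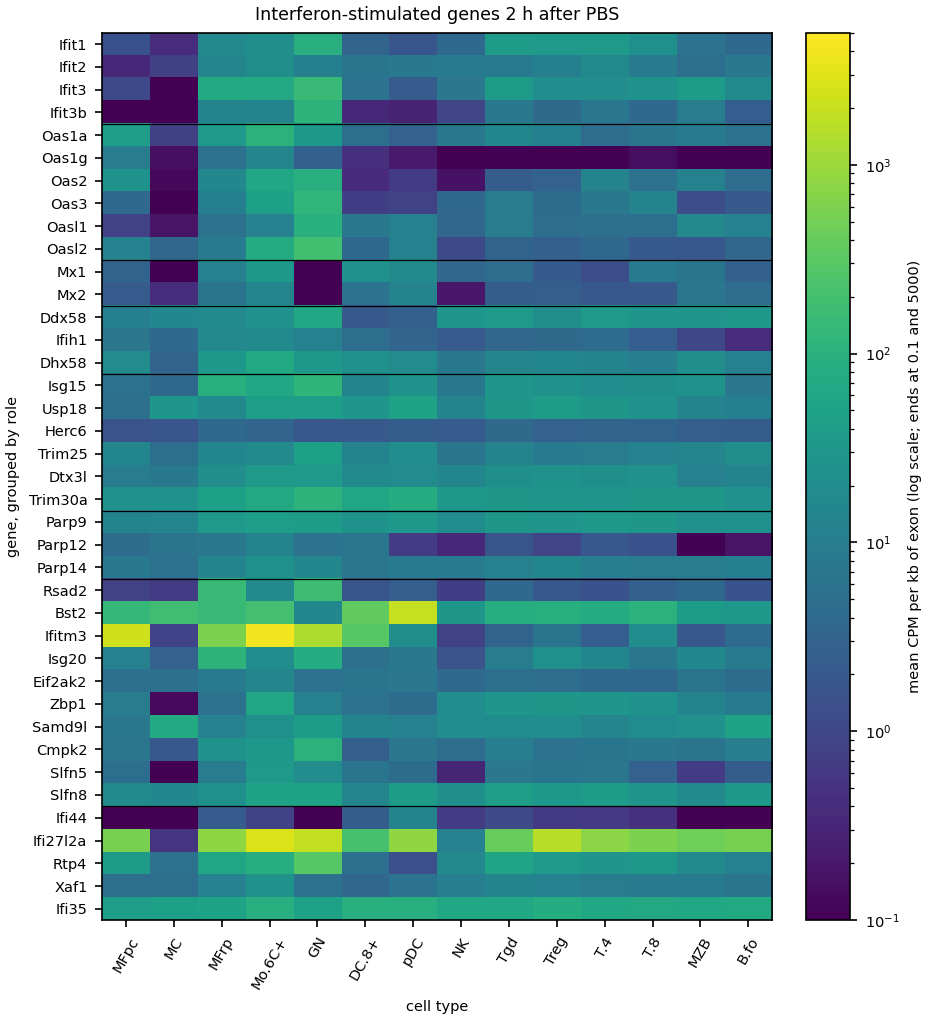
Mean level 2 h after PBS of the 39 genes (one per line, black lines between roles) in the 14 cell types (columns), as CPM per kb of exon on a log colour scale. The Mo.6C+ and GN columns are brightest for most genes, and Bst2 is brightest in pDC.

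TNFa changed these genes in opposite directions in different cell types. Over 510 tests of a member in a cell type (edgeR's quasi-likelihood test, adjusted p under 0.05 over all genes of the fit), 125 rose and 41 fell. Over all genes' tests the shares were 8.26% and 7.95%. Of the 39 members, 33 rose in at least 1 cell type, 21 fell in at least 1, 17 did both and 2 did neither. The matching shares of all genes are not given here. In pDC, lymphocytes and red pulp macrophages the calls were rises, except that Ifit2 fell in NK cells. In monocytes, neutrophils and peritoneal macrophages members went both ways, and so did genes in general there. Ifit3, Oasl2, Usp18, Trim25 and Cmpk2 fell in all 3 types, and Parp14 and Ifi35 rose in all 3. As a check of the injection, of 12 NF-kB target genes 12 rose in MFpc, MFrp, Mo.6C+, GN, NK, Tgd, Treg and T.4, 11 in DC.8+ and pDC, 8 in T.8, 4 in MC and 3 in MZB and in B.fo, where 1 also fell. The shares of all genes that TNFa changed differ between these types and are given below for each. With IL1b, IL6 and TNFa, each cell type's comparisons share the same PBS libraries.

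In pDC, the cells that make most type I interferon on viral infection, 23 of 38 members tested rose and 0 fell, beside 7.23% and 7.18% of all genes tested. The median log2 fold change of the members was 0.83 and that of all genes -0.03. Without TNFa library 1, 11 members rose. Ifit3 (chr19:34583531-34588731), whose protein binds Ifit1 on viral RNA, had 29.7, 23.1 and 13.8 CPM after TNFa and 2.72, 3.81, 7.06, 2.26 and 4.76 after PBS. All TNFa libraries lay above all PBS libraries, and the log2 fold change was 2.42 (SE 0.41, adjusted p = 5.32e-04). Rsad2 (chr12:26442746-26456452; viperin, which makes a nucleotide that ends viral RNA chains) had 96.2, 42.1 and 28.6 against 14.5, 14.2, 9.95, 12.1 and 7.25 CPM, again without overlap. Library 1 was the highest in both genes, and the log2 fold change of Rsad2 was 2.25 (SE 0.33, adjusted p = 1.48e-04). Usp18, which removes ISG15 from proteins and dampens the interferon receptor, held 103 to 216 CPM with PBS and 301 to 485 with TNFa, a log2 fold change of 1.32 (SE 0.18, adjusted p = 8.79e-05). By role, 3 of 4 IFIT genes, 2 of 2 Mx genes, 4 of 6 genes of the ISG15 system and 6 of 10 other effectors rose, beside 2 of 5 OAS genes tested.

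In marginal zone B cells, which answer blood-borne microbes, 15 of 36 members tested rose and 0 fell, beside 1.66% and 1.08% of all genes tested. All 36 had a log2 fold change above 0, with a median of 0.74 against -0.005 for all genes. In 30 of them each TNFa library was above each PBS library, and the share of all genes with such a gap is not given here. The count of rises was 7 without TNFa library 1 and 9 without library 3. Ifit1 (chr19:34640871-34650009), which binds RNA that lacks the host's cap methylation, had 104, 44.9 and 75.3 CPM after TNFa and 23.9, 12.8, 20.6 and 15.7 after PBS. The groups did not overlap, and its log2 fold change was 2.03 (SE 0.35, adjusted p = 0.00121). Ifit3b, the near copy of Ifit3, had 90.8, 62.3 and 87.1 against 35.4, 31.6, 14.2 and 4.44 CPM, a log2 fold change of 1.90 (SE 0.43, adjusted p = 0.0162) that was not called without PBS library 3 or TNFa library 1 or 3. All 4 IFIT genes and both Mx genes rose there. In follicular B cells, 4 of 37 rose and 0 fell (1.81% and 1.7% of all genes); this count was 1 or 2 without any single TNFa library and 2 without PBS library 5. Mx1 had 46.8, 29.1 and 28.7 CPM there after TNFa and 19.9, 5.70, 7.38, 15.4 and 13.5 after PBS, without overlap, and a log2 fold change of 1.50 (SE 0.35, adjusted p = 0.0204). Mx1 makes no full-length protein in C57BL/6 mice, but its transcript is made. The gene annotation lists Mx2 as a polymorphic pseudogene. Rtp4, a chaperone of receptors that also restrains viruses, had 50.4, 42.7 and 54.98 against 23.3, 36.5, 29.5, 29.6 and 22.5 CPM and a log2 fold change of 0.80 (SE 0.20, adjusted p = 0.0336). Rtp4 was not called without PBS library 1 or 5 or any TNFa library, nor Mx1 without TNFa library 1 or 2.

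Among T cells the CD4 and gamma-delta cells moved most. In T.4, 18 of 38 members tested rose and 0 fell, beside 3.6% and 2.96% of all genes tested, with a member median of 0.78 on the log2 scale. Parp14 (chr16:35832874-35871544), an ADP-ribosyltransferase, had 418, 384 and 405 CPM after TNFa and 111, 106, 117, 91.2 and 136 after PBS. The TNFa libraries agreed closely and lay far above all PBS libraries, and the log2 fold change was 1.84 (SE 0.12, adjusted p = 2.04e-09). Isg15 (chr4:156199424-156200818), the ubiquitin-like protein that gives the system its name, had 49.1, 51.7 and 66.4 against 19.1, 22.6, 23.2, 6.69 and 19.5 CPM and a log2 fold change of 1.61 (SE 0.28, adjusted p = 4.96e-04). PBS library 4 was the lowest here, as it was for the mean of all members. In Tgd, 16 of 38 rose and 0 fell (1.89% and 1.52% of all genes), and the count was 7 without TNFa library 1 and 9 without library 2. Rsad2 had 70.4, 64.7 and 66.7 CPM there against 30.1, 25.96, 27.2, 10.8 and 12.3, a log2 fold change of 1.66 (SE 0.35, adjusted p = 0.00951), and Ifit1 rose by 1.58 (SE 0.30, adjusted p = 0.00388). Neither gene's groups overlapped. In Treg, 7 of 38 rose and 0 fell (2.81% and 2.29% of all genes); without TNFa library 1 it was 2, and without TNFa library 2 or PBS library 5 it was 4. Isg15 had 45.8, 57.7 and 37.6 CPM against 21.1, 25.4, 31.6, 15.4 and 18.9 in Treg, and Ifit1 had 343, 214 and 135 against 128, 136, 94.2, 101 and 99.5. The groups did not overlap in Isg15, and TNFa library 3 lay within the PBS range in Ifit1. Isg15 was not called without PBS library 4 or 5 or TNFa library 1 or 2, nor Ifit1 without TNFa library 1. In T.8, with 2 TNFa libraries, 1 of 38 rose and 0 fell (0.337% and 0.144% of all genes). The member median there was 0.51 on the log2 scale, against -0.03 for all genes. The member that rose was Parp14, with 265 and 218 CPM against 99.1, 119, 124 and 87.1 and a log2 fold change of 1.17 (SE 0.17, adjusted p = 0.00689). No T.8 member was called without TNFa library 1, and 2 were called without PBS library 3.

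Red pulp macrophages, which clear old red blood cells, also moved upward: 12 of 39 rose and 0 fell (11.5% and 10.1% of all genes), with a median of 0.30 against -0.14 for all genes. Without TNFa library 1 there were 3, without TNFa library 2 there were 6, and without the 3 erythroid-rich PBS libraries 7. 2 members fell without PBS library 4 and 1 without PBS library 5. Parp14 had 589, 365 and 339 CPM after TNFa and 116, 95.5, 123, 94.7 and 139.9 after PBS, with no overlap and a log2 fold change of 1.92 (SE 0.20, adjusted p = 4.21e-06). Slfn5, a Schlafen protein, had 237, 98.7 and 137 against 51.7, 22.2, 121, 47.9 and 30.5 CPM. PBS library 3 lay above 1 of the TNFa libraries of Slfn5, whose log2 fold change was 1.52 (SE 0.45, adjusted p = 0.0243) and which was not called without TNFa library 1. None of the 6 OAS genes was called here.

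Ly6C+ monocytes showed the opposite balance: 6 of 39 members tested rose and 16 fell, beside 24.3% and 24.4% of all genes tested. The median was -0.36 on the log2 scale, and -0.04 for all genes. The genes that fell were 3 of 4 IFIT genes, 5 of 6 OAS genes, both Mx genes, Usp18, Trim25, Dtx3l, Dhx58, Cmpk2 and Ifi27l2a. Ifit3b had 1.91, 2.10 and 0.879 CPM after TNFa and 12.9, 21.8, 27.4, 17.6 and 24.2 after PBS, a log2 fold change of -3.64 (SE 0.51, adjusted p = 1.94e-05). Cmpk2, a mitochondrial nucleotide kinase that lies next to Rsad2, had 12.1, 30.7 and 18.7 against 120.03, 105, 123, 96.4 and 98.4 CPM and a log2 fold change of -2.40 (SE 0.30, adjusted p = 5.69e-06). In both genes all TNFa libraries lay below all PBS libraries. The 6 genes that rose in the same cells were Isg15, Ifih1, Isg20, Parp14, Trim30a and Ifi35. Isg15 had 139, 89.6 and 99.4 CPM after TNFa against 39.8, 38.1, 51.1, 35.8 and 34.9, a log2 fold change of 1.45 (SE 0.18, adjusted p = 5.67e-06), while Usp18, the protease of ISG15, fell. Ifih1 (MDA5, the sensor of long double-stranded RNA) rose by 1.23 (SE 0.14, adjusted p = 1.70e-06) on the log2 scale and Dhx58 (LGP2, a related helicase without a signalling domain) fell with -1.21 (SE 0.19, adjusted p = 6.37e-05). The red pulp macrophage markers summed to 737 to 979 CPM in these cells after PBS and 6922 to 9337 after TNFa, and the part of this rise in the members' changes was not tested.

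Neutrophils split along similar lines: 10 of 36 members tested rose and 12 fell, beside 18.5% and 19.0% of all genes tested. Ifit3 had 55.7, 6.64 and 8.30 CPM after TNFa and 161, 72.5, 118, 154 and 129 after PBS. TNFa library 1 was several times above the other 2 but below all PBS libraries, and the log2 fold change was -2.40 (SE 0.56, adjusted p = 0.00267). Oasl2 had 239, 132 and 129 CPM against 504, 488, 654, 511 and 915, without overlap, and a log2 fold change of -1.88 (SE 0.31, adjusted p = 1.17e-04). Ifit3b, Oasl1, Slfn5, Ifi27l2a, Usp18, Rsad2, Oas2, Trim25, Rtp4 and Cmpk2 fell too, with log2 fold changes from -2.29 to -0.68. Parp14 had 359.6, 229.7 and 308 CPM after TNFa and 57.8, 60.6, 69.4, 57.1 and 89.8 after PBS, the largest rise of a member in these cells at 2.16 (SE 0.21, adjusted p = 4.17e-07). Samd9l, Eif2ak2 (PKR, the kinase that stops translation), Zbp1, Herc6, Isg15, Isg20, Ifi35, Ifitm3 and Ddx58 (RIG-I) rose too, with log2 fold changes from 0.45 to 1.40. Of these, Ddx58 was not called without most single libraries, nor Cmpk2 without TNFa library 2 or 3. Both Mx genes were too low in GN to be tested. The summed neutrophil markers moved as well, from 66606 to 97942 CPM with PBS to 222027 to 248788 with TNFa and 216130 to 217137 with IL1b, and their part in the members' changes was not tested.

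In peritoneal macrophages 6 of 35 rose and 11 fell (26.6% and 26.7% of all genes). Mx1 had 2.41, 0 and 0.742 CPM after TNFa and 11.02, 9.26, 14.3, 3.84 and 5.19 after PBS, with a log2 fold change of -3.02 (SE 0.60, adjusted p = 2.74e-04), and Cmpk2 had 2.23, 7.41 and 1.85 against 27.6, 22.1, 16.2, 18.3 and 15.7, with -2.36 (SE 0.43, adjusted p = 9.62e-05). In both genes all TNFa libraries were below all PBS libraries. Usp18, Trim25 (the ubiquitin ligase that activates RIG-I), Rsad2, Mx2, Dhx58, Oasl2, Herc6 and Rtp4 fell too, and Ifit3, also called lower, is listed at 0 in all 3 TNFa libraries and at no more than 2.43 CPM with PBS. The 6 that rose were Trim30a, Parp14, Ifi35, Eif2ak2, Parp9 and Ifitm3, with log2 fold changes from 0.38 to 1.42.

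Fewer members were called in the remaining types. In DC.8+, 4 of 39 rose and 1 fell (8.05% and 7.48% of all genes). Oasl1, which in the mouse restrains IRF7 translation, had 61.1, 76.4 and 47.8 CPM after TNFa against 23.5, 12.7, 24.2 and 10.5 with PBS, a log2 fold change of 1.80 (SE 0.34, adjusted p = 0.00190). The member that fell was Samd9l, a translation inhibitor, with 25.1, 16.6 and 12.7 against 51.1, 64.4, 76.4 and 63.2 CPM and -1.82 (SE 0.28, adjusted p = 4.15e-04); 3 members fell without PBS library 5 and 2 without TNFa library 2. In NK cells, 2 of 37 rose and 1 fell (7.65% and 7.93% of all genes): Isg15 and Rtp4 rose and Ifit2 fell, with 17.4, 10.05 and 6.46 CPM of Ifit2 against 36.4, 27.5, 36.2, 37.2 and 42.4, a log2 fold change of -1.63 (SE 0.32, adjusted p = 0.00134). Isg15 in NK cells had 13.7, 15.2 and 15.9 against 8.59, 5.51, 8.43, 5.64 and 4.89 CPM, and neither gene's groups overlapped. Isg15 was not called and only 1 NK member rose without PBS library 2, 4 or 5 or any single IL1b or TNFa library, and 4 rose without PBS library 3. In MC, where 22 members could be tested, 1 of 22 rose and 0 fell (2.58% and 1.42% of all genes); the call was Ifi35, with 112, 124 and 100.5 against 56.1, 76.9, 83.2 and 60.6 CPM, and it was lost without PBS library 2 or 5 or any TNFa library. In the 9 cell types where TNFa lowered no member, edgeR gave 0 to 4 lowered members at an unadjusted p under 0.05, and DESeq2 called 0 or 1.

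**Figure D2:**
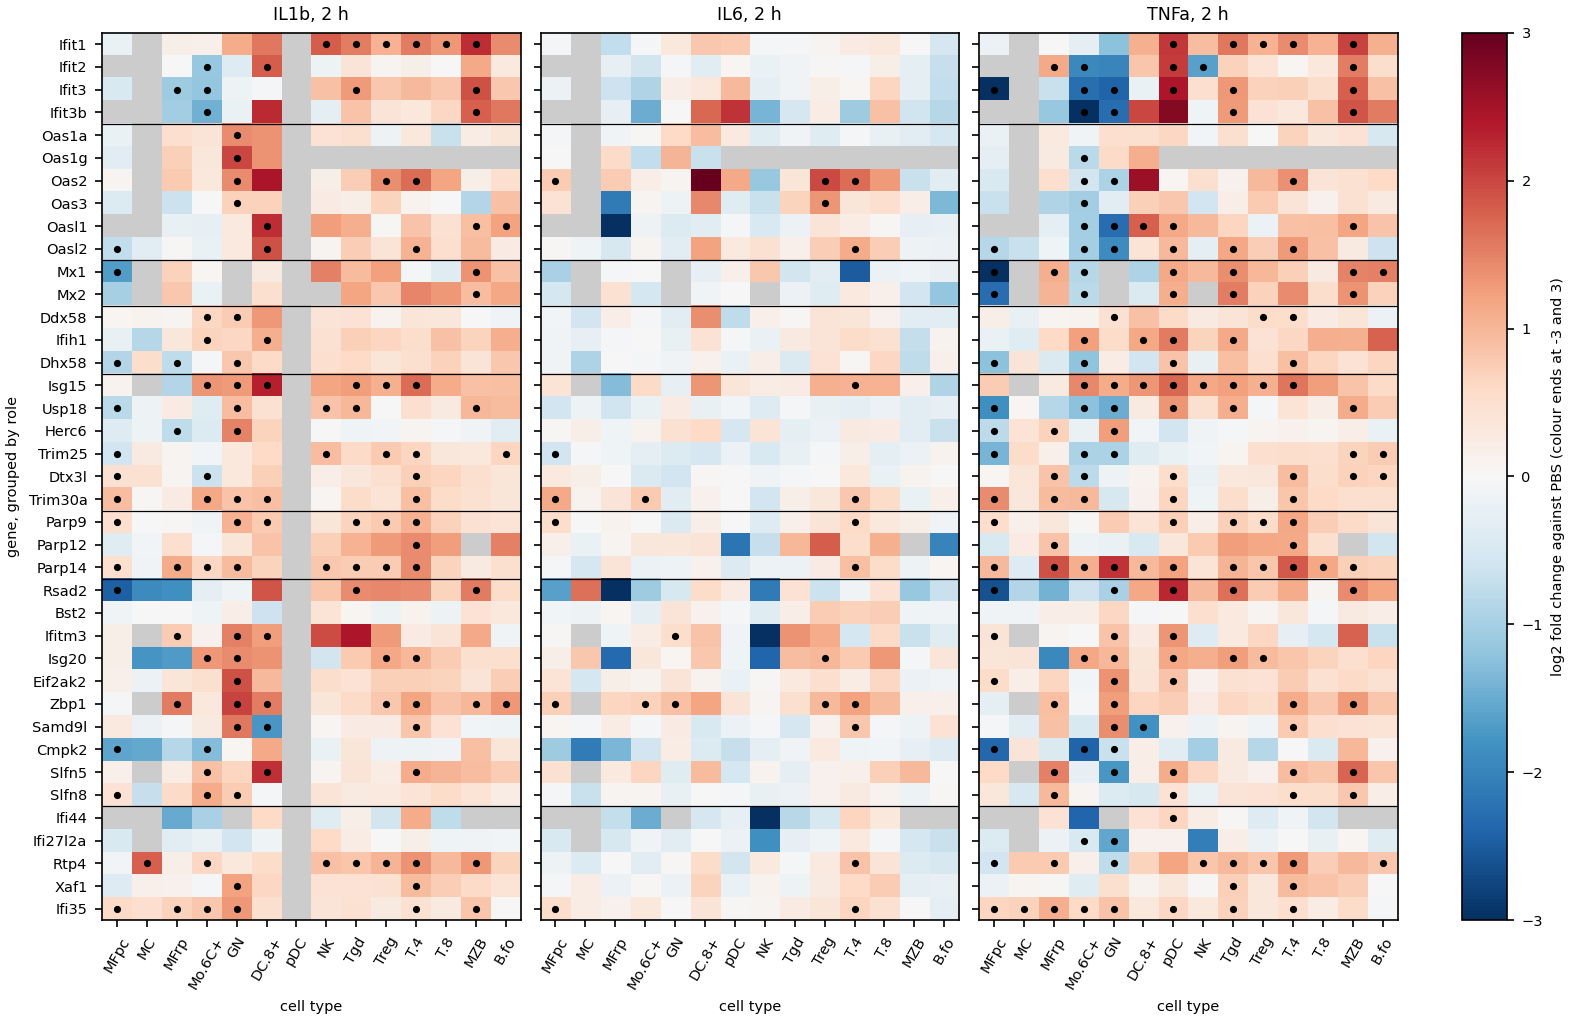
Log2 fold change against PBS of each gene (one per line, by role) in each cell type (columns) 2 h after IL1b, IL6 and TNFa, with a black dot where the adjusted p was under 0.05 and grey where the gene was not tested or the group does not exist. With TNFa the IFIT and OAS genes tested are blue in MFpc and Mo.6C+ and red in pDC and MZB, though not all carry a dot, both Mx genes are grey in GN, and Parp14 is red in every column except MC.

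Followed gene by gene, the members called in the most cell types were not the IFIT, OAS or Mx genes. Parp14 rose in 11 of 14 cell types, Isg15 in 8 of 13 tested, Ifi35 in 8 of 14 and Rtp4 in 6 of 14, where it also fell in 2 (GN and MFpc). The log2 fold changes of Parp14 that passed the test ran from 0.73 in MZB, where the call was lost without PBS library 3 or 4 or any TNFa library, to 2.16 in GN. In MC its value was -0.39 (adjusted p = 0.559). Ifi35, a regulator of innate signalling, rose by 0.49 in T.4, a call lost without TNFa library 1 or 3, to 1.09 in MFrp. Ifit3, Usp18 and Oasl2 each fell in Mo.6C+, GN and MFpc and rose in pDC and Tgd. Usp18 held 83.5 to 118 CPM with PBS and 35.4 to 46.9 with TNFa in Mo.6C+, with a log2 fold change of -1.23 (SE 0.17, adjusted p = 1.54e-05), and rose in MZB by 1.12 (SE 0.20, adjusted p = 0.00176). Trim25 fell in MFpc, where TNFa libraries held 23.4, 19.4 and 21.5 CPM and PBS libraries 51.9, 50.3, 70.3, 53.4 and 57.9, and rose in MZB with 155, 145 and 129.6 against 78.2, 111, 92.9 and 75.5. Neither pair of groups overlapped, and the MZB call was lost without TNFa library 1. Bst2 and Oas1a were the 2 members that TNFa changed in no cell type.

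**Figure D3:**
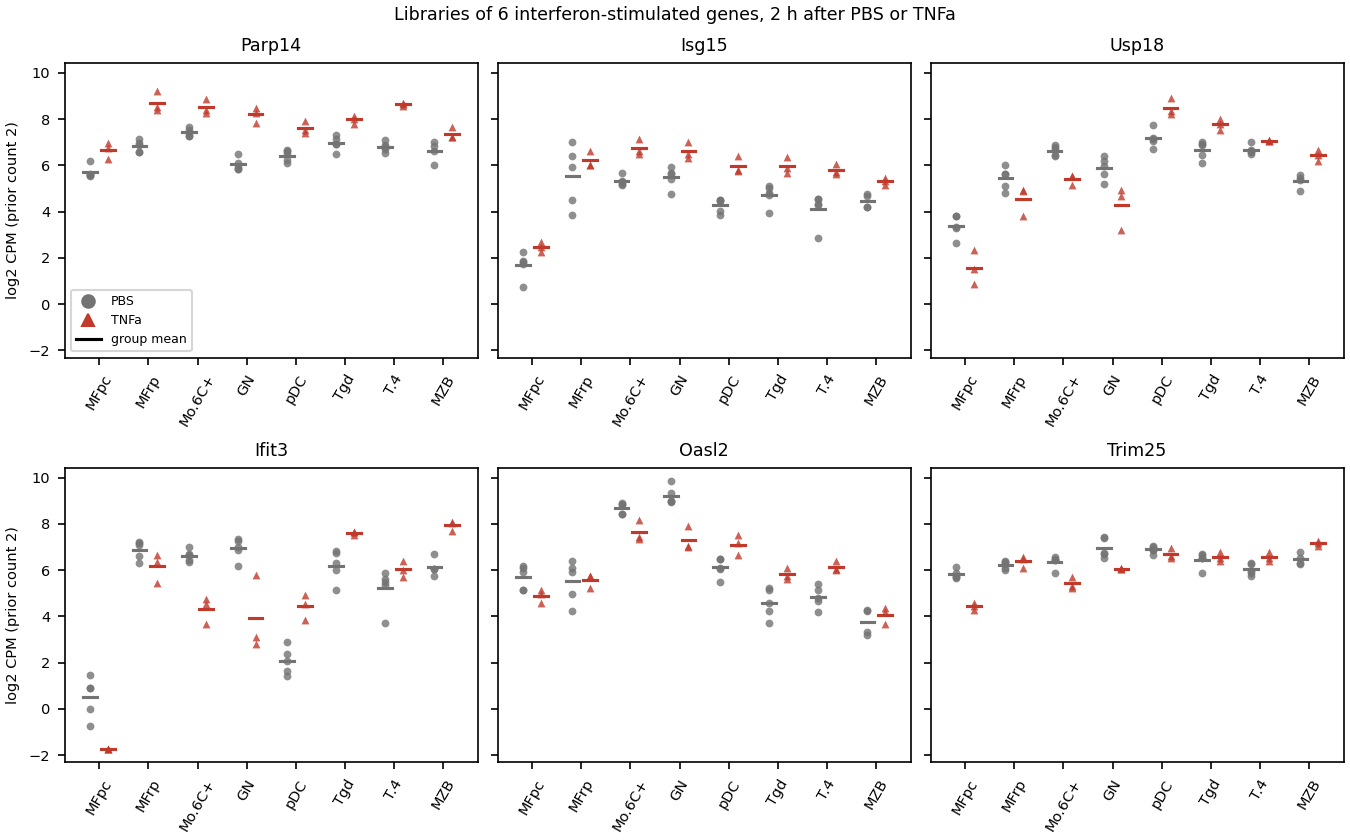
Log2 CPM (prior count 2) of 6 genes in each library 2 h after PBS (grey circles) or TNFa (red triangles) in 8 cell types, with lines at the group means. Usp18, Ifit3 and Oasl2 are lower after TNFa in MFpc, Mo.6C+ and GN and higher in pDC and Tgd, and Parp14 is higher in all 8.

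A joint fit of all screen libraries tested whether a gene's response depended on the cell type. With TNFa it did for 29 of 39 members (36.3% of all genes tested), with IL1b for 25 (22.8%) and with IL6 for 11 (6.87%). Without the libraries numbered 1, 2 or 3 of every group the IL1b count was 16, 12 and 11, and without those numbered 2 or 3 the IL6 count was 1 and 3. The smallest adjusted p with TNFa were those of Usp18 (5.41e-19) and Trim25 (4.69e-18), which fell in MFpc, Mo.6C+ and GN and rose in MZB. The 10 members without a detected dependence on cell type under TNFa were Bst2, Ddx58, Eif2ak2, Ifi44, Ifitm3, Isg15, Oas1a, Oas1g, Oas3 and Parp12.

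IL1b raised members in most cell types and lowered few: over 472 tests, 105 rose and 16 fell (beside 5.76% and 4.26% of all genes' tests), and the falls were in MFpc, MFrp, Mo.6C+ and DC.8+. Neutrophils had the most: 20 of 36 members tested rose and 0 fell, beside 12.9% and 9.44% of all genes tested, with a member median of 0.78 on the log2 scale. Without IL1b library 2 the count was 11. Zbp1 had 53.1, 103 and 81.6 CPM after IL1b against 12.5, 18.7, 20.1, 23.2 and 23.7, a log2 fold change of 2.02 (SE 0.26, adjusted p = 2.52e-05). Oas1g had 5.91, 19.8 and 15.3 against 1.70, 1.77, 5.89, 5.56 and 2.07 CPM and 2.00 (SE 0.55, adjusted p = 0.0144). Neither gene's groups overlapped, and IL1b library 1 was the lowest of its group in both. Oas1g, with the narrower gap, was not called without IL1b library 2 or 3. The 4 IFIT genes were not called in these cells, while 4 of 6 OAS genes and 6 of 10 other effectors rose.

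In T.4, 17 of 38 rose and 0 fell (3.37% and 2.6% of all genes), or 11 without IL1b library 2. Oas2, an oligoadenylate synthetase that activates RNase L, had 176, 244 and 216 CPM after IL1b and 65.7, 59.5, 68.3, 37.9 and 100.02 after PBS, a log2 fold change of 1.69 (SE 0.20, adjusted p = 7.77e-06). Isg15 had 43.4, 64.2 and 66.95 against 19.1, 22.6, 23.2, 6.69 and 19.5 CPM in T.4, with 1.68 (SE 0.28, adjusted p = 3.37e-04). In MZB, 11 of 36 rose and 0 fell (2.57% and 1.4% of all genes), or 5 without IL1b library 3. Ifit1 had 39.5, 105 and 109 CPM there against 23.9, 12.8, 20.6 and 15.7, a log2 fold change of 2.21 (SE 0.35, adjusted p = 5.10e-04), and Ifit3 had 141, 318 and 359 against 105, 64.8, 65.8 and 53.3, with 1.92 (SE 0.31, adjusted p = 6.31e-04). IL1b library 1 lay well under the other 2 in both genes yet above every PBS library. In DC.8+, with 2 IL1b libraries, 10 of 39 rose and 1 fell (3.38% and 1.44% of all genes), or 6 without either IL1b library. Isg15 had 52.3 and 34.5 CPM against 8.40, 9.16, 10.8 and 6.32, with 2.32 (SE 0.41, adjusted p = 0.00321), and Oasl1 94.9 and 68.4 against 23.5, 12.7, 24.2 and 10.5. Neither gene's groups overlapped. The member that fell there was Samd9l, and neither it nor Isg15 was called without IL1b library 2.

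Regulatory and gamma-delta T cells, NK cells and follicular B cells each had several rises and no fall. In Treg, 9 of 38 rose and 0 fell (2.19% and 1.08% of all genes), or 4 without IL1b library 2 or 3, when Oas2 was not called either. Oas2 had 33.2, 43.7 and 48.7 CPM against 21.9, 15.6, 20.8, 11.03 and 9.83, a log2 fold change of 1.40 (SE 0.31, adjusted p = 0.0108), and Isg20, an RNA exonuclease, 95.9, 108 and 136 against 65.3, 51.2, 53.6, 48.8 and 32.8. In Tgd, 8 of 38 rose and 0 fell (1.23% and 0.918% of all genes); leaving out IL1b library 3 left 0, IL1b library 2 left 3, PBS library 4 or 5 or TNFa library 1 left 4, and PBS library 3 or TNFa library 2 left 5. Ifit1 had 258, 299 and 550.5 CPM in Tgd against 153, 189, 128, 48.4 and 118, and Rsad2 had 47.6, 74.6 and 47.1 against 30.1, 25.96, 27.2, 10.8 and 12.3, each without overlap. Rsad2 was called in Tgd only with every IL1b and TNFa library and PBS libraries 3 to 5 kept, and Ifit1 only with IL1b library 3. In NK cells, 5 of 37 rose and 0 fell (2.17% and 1.22% of all genes), falling to 1 without IL1b library 3 and to 3 without IL1b library 1 or 2 or PBS library 5. Ifit1 had 40.3, 39.3 and 48.1 against 17.2, 10.1, 12.99, 3.95 and 16.4 CPM there, with 1.81 (SE 0.38, adjusted p = 0.00781), and Trim25 had 65.3, 82.3 and 86.1 against 42.9, 38.8, 49.9, 42.1 and 32.4, a call lost without any IL1b library or PBS library 1, 2, 4 or 5. In B.fo, 3 of 37 rose and 0 fell (0.745% and 0.343% of all genes), with 0 left without IL1b library 3 and 1 without IL1b library 2 or PBS library 4. The B.fo calls were Zbp1, with 46.4, 112 and 105 CPM against 32.8, 48.1, 36.6, 23.7 and 34.5, Oasl1, with 84.5, 78.2 and 81.01 against 36.6, 60.2, 19.4, 31.2 and 28.4, and Trim25. IL1b library 1 lay within the PBS range in Zbp1, which was not called without IL1b library 2 or 3, nor Oasl1 without any IL1b library or PBS library 4.

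In macrophages and monocytes members again moved both ways, and so did genes in general there. In Mo.6C+, 10 of 39 rose and 5 fell (19.4% and 17.6% of all genes). Isg15 had 79.6, 112 and 111 CPM against 39.8, 38.1, 51.1, 35.8 and 34.9, with 1.34 (SE 0.18, adjusted p = 2.57e-05), while Ifit3b had 6.58, 8.02 and 8.42 against 12.9, 21.8, 27.4, 17.6 and 24.2, with -1.43 (SE 0.43, adjusted p = 0.0144). Neither gene's groups overlapped, and Ifit3b was not called without IL1b library 1. The 5 that fell were Ifit2, Ifit3, Ifit3b, Cmpk2 and Dtx3l, and red pulp macrophage markers summed to 3469 to 5810 CPM after IL1b in these cells, against 737 to 979 with PBS; their part was not tested. In MFpc, 6 of 35 rose and 7 fell (20.7% and 16.6% of all genes). Cmpk2 had 4.43, 11.2 and 4.32 CPM against 27.6, 22.1, 16.2, 18.3 and 15.7, with -1.59 (SE 0.39, adjusted p = 0.00326), and Mx1 2.22, 2.24 and 3.65 against 11.02, 9.26, 14.3, 3.84 and 5.19. All IL1b libraries were below all PBS libraries in both, and Mx1 was not called without IL1b library 1 or 2. Without IL1b library 1 of MFpc, 3 rose and 3 fell, and without IL1b library 3 or PBS library 1, 4 fell. In MFrp, 4 of 39 rose and 3 fell (6.64% and 4.22% of all genes). Zbp1 had 60.2, 73.2 and 34.6 CPM against 17.2, 20.1, 22.1, 14.7 and 20.1 and Parp14 221, 241 and 275 against 116, 95.5, 123, 94.7 and 139.9, all IL1b libraries being the higher. Without the 3 erythroid-rich PBS libraries, 3 rose and 1 fell. The 3 MFrp falls dropped to 0 or 1 when any IL1b library, PBS library 3 or 4 or IL6 library 1 or 2 was left out. In MC, 1 of 22 rose and 0 fell (1.77% and 0.425% of all genes): Rtp4 had 42.3 and 31.5 CPM against 15.3, 9.85, 9.53 and 8.19, and the call was lost without either IL1b library. In T.8, 1 of 38 rose and 0 fell (0.474% and 0.108% of all genes): Ifit1 had 186, 159 and 169 CPM against 76.9, 73.02, 88.6 and 41.1, and no member was called without PBS library 1 or 2 or any IL1b library, while 2 or 3 were called without PBS library 3, IL6 library 3 or TNFa library 1 or 3. The T.8 member median with IL1b was 0.58 on the log2 scale, against -0.02 for all genes. In the 9 cell types with no fall, edgeR gave 0 or 1 lowered member at an unadjusted p under 0.05 and DESeq2 0.

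Over cell types, IL1b raised Parp14 in 8 of 13, Zbp1 and Rtp4 in 7 each and Ifit1 in 6 of the 12 where it was tested, all 6 being lymphocytes or NK cells. Ifit3 fell in MFrp and Mo.6C+, Dhx58 in MFpc and MFrp, and Cmpk2 in MFpc and Mo.6C+.

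IL6, which signals through STAT3, changed fewer members, and fewer of all genes: over 510 tests 23 rose and 1 fell (beside 1.46% and 0.95% of all genes' tests), and 25 of the 39 members were called nowhere. The share of all genes called nowhere is not given here. CD4 T cells had the most: 10 of 38 members tested rose and 0 fell, beside 1.61% and 1.19% of all genes tested. Without IL6 library 2 the count was 6. Oas2 had 230.4, 224 and 175 CPM after IL6 and 65.7, 59.5, 68.3, 37.9 and 100.02 after PBS, a log2 fold change of 1.67 (SE 0.20, adjusted p = 3.48e-05), and Zbp1 had 269, 314 and 268 against 125, 135, 124, 89.2 and 142, with 1.21 (SE 0.14, adjusted p = 1.91e-05). No library of either gene overlapped between the groups. In Treg, 4 of 38 rose and 0 fell (0.363% and 0.131% of all genes). Oas2 had 50.3, 66.6 and 71.4 CPM there against 21.9, 15.6, 20.8, 11.03 and 9.83, with 1.98 (SE 0.31, adjusted p = 0.00231), and Oas3 99.3, 82.03 and 103 against 53.2, 25.8, 52.9, 30.6 and 26.5. All IL6 libraries were above all PBS libraries in both. The Treg count fell to 1 without any IL6 library and to 2 without PBS library 4 or 5, and Oas3 was called in none of these nor without PBS library 2.

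In peritoneal macrophages IL6 gave 5 rises and 1 fall among 35 members (9.16% and 6.17% of all genes). Trim30a, a TRIM protein that restrains NF-kB signalling, had 132, 162 and 156 CPM against 93.1, 67.8, 71.5, 49.2 and 57.7, with 1.15 (SE 0.15, adjusted p = 1.46e-05). Oas2 had 114, 132 and 152 against 111, 81.7, 95.7, 45.3 and 56.3, where the lowest IL6 library was just above the highest PBS library and the call was lost without IL6 library 3. The fall was Trim25, at 50.3 to 70.3 CPM with PBS and 31.9 to 42.9 with IL6, a log2 fold change of -0.56 (SE 0.14, adjusted p = 0.00614). It was not called without IL6 library 1, and 2 members fell without PBS library 5, IL1b library 2 or TNFa library 2 or 3. In Mo.6C+, 2 of 39 rose and 0 fell (3.78% and 2.09% of all genes): Trim30a, with 375, 433 and 454 against 269, 259.6, 231, 224 and 238 CPM, and Zbp1, with 244, 282 and 304 against 209.9, 169, 178, 152 and 146. For the 0 that fell, edgeR gave 6 at an unadjusted p under 0.05 and DESeq2 called 3. The call of Zbp1 was lost without PBS library 2, 3, 4 or 5, IL1b library 3 or IL6 library 2 or 3, and 4 members fell without IL6 library 2, 2 without TNFa library 3 and 1 without PBS library 1 or IL1b library 1. In GN, 2 of 36 rose and 0 fell (5.23% and 4.28% of all genes): Zbp1, with 46.6, 27.1 and 33.7 against 12.5, 18.7, 20.1, 23.2 and 23.7 CPM, and Ifitm3, with 792, 576 and 606 against 488, 398, 478, 485 and 448. Both GN calls were lost without any IL6 library or PBS library 2, 3, 4 or 5, and that of Zbp1 also without PBS library 1 or IL1b library 3. For the 0 lowered in GN, Treg and T.4, edgeR gave 0, 0 and 1 at an unadjusted p under 0.05 and DESeq2 called 0, 0 and 1.

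In the other 9 cell types IL6 changed no member in either direction by edgeR, and 0 to 0.387% of all genes rose and 0 to 0.212% fell. At an unadjusted p under 0.05, 14 members of T.8 and 9 of DC.8+ were higher, and 9 of MFrp, 6 of MZB, 4 of B.fo and 3 of NK and of pDC lower, the rest being 0 to 4 in each direction. DESeq2 called 5 higher in T.8 and 2 in DC.8+, and 3 lower in MFrp and 1 each in MZB and B.fo. Without 1 library edgeR called 1 member in T.8 (raised, without IL6 library 3) and in MFrp (lowered, without PBS library 5).

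Set against each other, TNFa and IL1b differed for members in 6 of 13 cell types. Over 472 tests, members were higher with TNFa in 4 (2.17% of all genes' tests) and lower in 40 (2.33%), of which 17 lower were in GN (11.5% of all genes there), 13 in Mo.6C+ (7.23%) and 6 in DC.8+ (2.11%). Oas2 in GN had 155, 66.4 and 88.5 CPM with TNFa and 412, 629 and 563 with IL1b, a log2 difference of -2.37 (SE 0.27, adjusted p = 5.45e-06). Oasl1 had 16.1, 32.9 and 30.4 against 71.99, 201 and 201 and Oasl2 239, 132 and 129 against 445, 873 and 931, and none of these groups overlapped. No member differed between TNFa and IL1b in Tgd, Treg, T.4, T.8, MZB, B.fo or MC, where at an unadjusted p under 0.05 edgeR gave 0 to 5 higher and 0 or 1 lower and DESeq2 called 0 or 1 higher and 0 lower.

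TNFa against IL6 gave 73 higher (5.41%) and 37 lower (5.18%) over 510 tests, the higher led by MZB with 21 (0.936% of all genes there) and pDC with 15 (2.98%), and the lower by Mo.6C+ with 13 (20.5%), MFpc with 12 (19.9%) and GN with 10 (16.8%). Parp14 in GN had 359.6, 229.7 and 308 CPM with TNFa and 67.8, 48.8 and 64.8 with IL6, a log2 difference of 2.31 (SE 0.26, adjusted p = 2.56e-06). Ifih1 in Mo.6C+ had 325, 279.6 and 249.8 against 100.2, 142 and 120.3, and Mx1 in MZB 89.1, 67.3 and 81.9 against 25.2, 26.4 and 25.7, all without overlap. IL1b against IL6 gave 53 higher (3.06%) and 4 lower (2.14%) over 472 tests. Mx1 in MZB had 62.5, 74.8 and 79.8 CPM with IL1b, above all 3 IL6 libraries, with a log2 difference of 1.49 (SE 0.19, adjusted p = 5.68e-05). In GN, Isg20 had 135, 261 and 216 with IL1b against 81.3, 73.5 and 84.03 with IL6, and Ifitm3 975, 1580.02 and 1369.8 against 792, 576 and 606.

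Over the hours after TNFa, members fell in spleen monocytes up to 8 h, and at 24 h 3 were called lower. The time course had no PBS group at 2, 4 or 8 h in either cell type. At these times the parts of TNFa and of the hours since injection cannot be told apart. Against PBS at 24 h, which all 4 times share, 5 of 39 rose and 10 fell at 2 h (19.7% and 20.6% of all genes), 1 rose and 22 fell at 4 h (15.9% and 16.6%), 0 rose and 30 fell at 8 h (11.5% and 10.5%), and 0 rose and 3 fell at 24 h (2.74% and 1.72%). The member medians were -0.41, -0.82, -1.50 and -0.28 on the log2 scale. Both TNFa libraries lay below both PBS libraries for 38 of 39 members at 8 h and for 23 at 24 h. The share of all genes with such a gap is not given here, and at 24 h only 3 members were called lower. For the 0 raised at 8 and at 24 h, edgeR also gave 0 at an unadjusted p under 0.05 and DESeq2 called 0. Leaving out any 1 library, 23 to 32 members fell at 8 h.

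The genes followed different courses. Cmpk2 was low from the first time on: it had 12.2 and 15.99 CPM at 2 h, 17.9 and 11.1 at 4 h, 15.7 and 22.1 at 8 h and 61.3 and 66.2 at 24 h, against 166 and 137 with PBS. Its log2 fold changes were -3.42, -3.38, -3.01 and -1.25 (SE 0.26, adjusted p = 0.0175). Ifit3, Usp18, Rsad2, Mx1 and Mx2 were likewise called lower at 2, 4 and 8 h, and Rsad2 and Ifi27l2a were the other 2 still lower at 24 h.

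Trim25 was lower at 2 and 4 h and not called at 8 h, with 56.5 and 60.2 CPM at 2 h, 73.3 and 89.5 at 4 h, 136 and 158 at 8 h and 161 and 198 at 24 h against 206 and 167. The log2 fold change was -1.68 (SE 0.21, adjusted p = 8.99e-05) at 2 h and -0.34 at 8 h (adjusted p = 0.266). Ifih1 rose first and fell later, with 431 and 331 CPM at 2 h, 194 and 161 at 4 h, 77.5 and 89.1 at 8 h and 159.6 and 122 at 24 h against 159.7 and 149. Its log2 fold change was 1.30 (SE 0.22, adjusted p = 6.23e-04) at 2 h and -0.89 (SE 0.22, adjusted p = 0.0121) at 8 h, where the call was lost without either PBS library or TNFa library 1 of 8 h. Dtx3l, the ubiquitin ligase that pairs with Parp9, was called lower at 2, 4 and 8 h and had 236 and 270.2 CPM at 24 h against 259.8 and 285.

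At 8 h all 10 other antiviral effectors, all 3 RNA sensors, both Mx genes, 4 of 6 OAS genes, 4 of 6 genes of the ISG15 system and 2 of 4 IFIT genes were lower. Oas3 had 33.6 and 33.96 CPM at 8 h against 323 and 309, the largest fall then, with -3.23 (SE 0.35, adjusted p = 6.60e-05). Samd9l went from 335 and 177 CPM at 2 h to 38.4 and 36.2 at 8 h, with PBS at 215 and 245. Set against 2 h directly, 0 members were higher and 8 lower at 4 h (5.06% and 5.25% of all genes, with 2 members higher at an unadjusted p under 0.05), 2 higher and 23 lower at 8 h (17.7% and 16.0%), and 8 higher and 7 lower at 24 h (18.9% and 17.5%). The red pulp macrophage markers in these libraries summed to 599 to 708 CPM with PBS, 3383 to 5053 at 2 h, 3852 to 4544 at 4 h and 1774 to 3932 at 8 h, and their part was not tested. With 2 libraries a group, leaving 1 out assumes that the other varies like the rest. Without PBS library 1 or 2, 1 member rose at 2 h and 14 or 12 fell at 4 h. Without TNFa library 2 of 4 h 9 fell at 4 h, the rise at 4 h was lost without TNFa library 1 of 4 h or either PBS library, and 0 or 1 fell at 24 h without any library of those groups.

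In peritoneal macrophages there was no such common fall. Of 35 members tested, 8 rose and 6 fell at 2 h (18.1% and 18.1% of all genes), 3 and 8 at 4 h (18.7% and 16.9%), 2 and 6 at 8 h (15.6% and 12.8%) and 0 and 1 at 24 h (3.81% and 2.86%). Trim30a had 232 and 215 CPM at 2 h, 131 and 113 at 4 h and 64.9 and 84.2 at 8 h against 74.9 and 72.3 with PBS, a log2 fold change of 1.60 (SE 0.20, adjusted p = 5.17e-05) at 2 h. Parp14 had 199 and 229.6 CPM at 2 h and 48.1 and 62.9 at 8 h against 102 and 89.6, higher at 2 h (1.16) and lower at 8 h (-0.79, adjusted p = 0.0436), the latter a call that was lost without most single libraries. Both of its 2 h libraries lay above the PBS libraries and both 8 h libraries below. Mx1 had 0.937 and 1.32 CPM at 2 h, 1.19 and 2.97 at 4 h and 2.34 and 4.62 at 8 h against 23.2 and 19.9, with a log2 fold change of -4.24 (SE 0.74, adjusted p = 6.83e-04) at 2 h. Ifitm3 had 1353 and 1384 CPM at 2 h against 803 and 889, and Dhx58 18.2 and 21.2 against 40.01 and 41.9. The counts rested on few libraries: without PBS library 1 they were 3 raised at 2 h, 1 raised and 5 lowered at 4 h and 1 raised and 1 lowered at 8 h, without PBS library 2 they were 5, 1 and 3, and 0 and 2, and without TNFa library 1 of the time in question 5 raised and 3 lowered at 2 h, 0 and 3 at 4 h and 0 and 2 at 8 h. At 24 h the single fall, of Ifi27l2a, was lost without either PBS library, TNFa library 1 of 24 h or either TNFa library of 2 h, 2 members fell without either TNFa library of 8 h, and 6 fell and 0 rose without TNFa library 2 of 24 h. For the 0 raised at 24 h, edgeR gave 0 at an unadjusted p under 0.05, DESeq2 called 0, and 1 rose without TNFa library 1 of 24 h.

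The 2 h response to TNFa was measured in both experiments, and a fit of both found no member whose response differed between them in monocytes (0 of 39) or in peritoneal macrophages (0 of 36), with 0.881% of all genes' tests called. At an unadjusted p under 0.05, edgeR gave 2 higher and 4 lower in the time course in monocytes and 3 and 1 in macrophages.

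**Figure D4:**
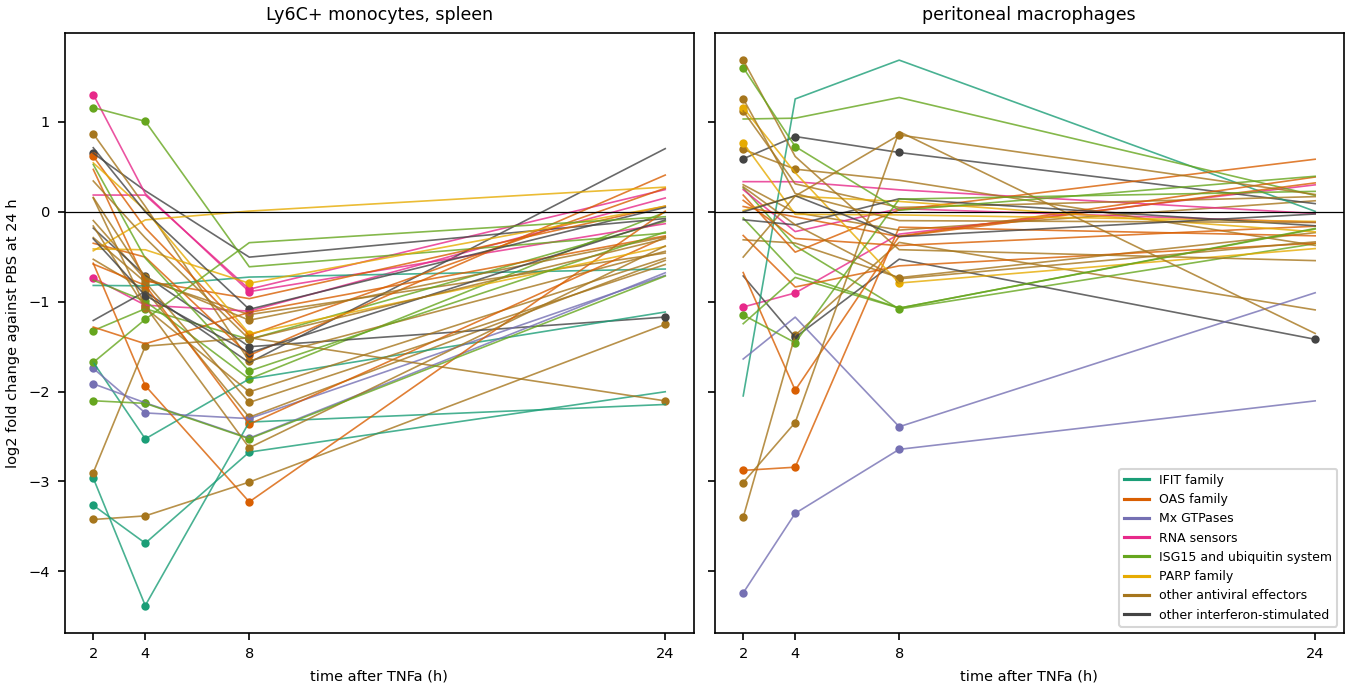
Log2 fold change against PBS at 24 h of each gene (one line each, coloured by role) at 2, 4, 8 and 24 h after TNFa, with a dot where the adjusted p was under 0.05, in spleen monocytes (left) and peritoneal macrophages (right). In monocytes all but 1 line lie below 0 at 8 h and 10 of 39 lie above 0 at 24 h, while in macrophages lines run to both sides.

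LPS raised nearly all members in the same cell type. In spleen monocytes 38 of 39 rose and 0 fell after 1 ng of LPS (10.2% and 8.38% of all genes). The median log2 fold change was 2.28, against -0.06 for all genes. In 39 of 39 each LPS library was above each control library, and the share of all genes with such a gap is not given here. For the 0 that fell, edgeR gave 0 at an unadjusted p under 0.05 and DESeq2 called 0. The member not called was Ifi27l2a, with 1185, 1280.2 and 1684 CPM after LPS and 1006, 892 and 966 in the controls, a log2 fold change of 0.53 (SE 0.23, adjusted p = 0.131). Ifit1 had 2174, 2059 and 4113 CPM after LPS against 65.8, 134 and 33.5, the largest log2 fold change at 5.17 (SE 0.55, adjusted p = 3.51e-04). Rsad2 had 787, 1694 and 3895 against 72.6, 57.7 and 91.1 CPM, with 4.84 (SE 0.56, adjusted p = 4.35e-04). LPS library 3 was the highest of its group in both.

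Of the next genes, Isg15 went from 38.6, 31.4 and 37.5 CPM to 332, 659 and 1215 (4.35 on the log2 scale) and Mx1 from 139, 80.01 and 113 to 1164, 1491 and 2652 (4.00). Ifit2, Oasl1, Ifit3 and Mx2 rose by 4.47, 4.33, 3.70 and 3.54. The smallest called rise was that of Ifitm3, already high at rest, at 0.80 (SE 0.24, adjusted p = 0.0431), and it was lost without any control library or LPS library 2 or 3. The neutrophil markers summed to 399 to 524 CPM in the controls and 1047 to 1345 with LPS, and their part was not tested.

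The LPS response exceeded each cytokine's 2 h response in monocytes, each taken against its own controls in a fit of both experiments. The difference passed the test upward for 35 of 39 members against IL1b (3.2% of all genes higher and 1.91% lower), 35 against IL6 (6.2% and 3.72%) and 39 against TNFa (4.65% and 1.99%). None was lower by edgeR in any of the 3, nor at an unadjusted p under 0.05. Without the libraries numbered 3 of every group in the fit, the counts were 19, 30 and 23. The largest difference from TNFa was that of Ifit3b, 6.96 (SE 0.69, adjusted p = 1.62e-06), and the smallest that of Ifitm3, 0.86 (SE 0.22, adjusted p = 0.0220). Agent and dose differ between the experiments, and so may the time.

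**Figure D5:**
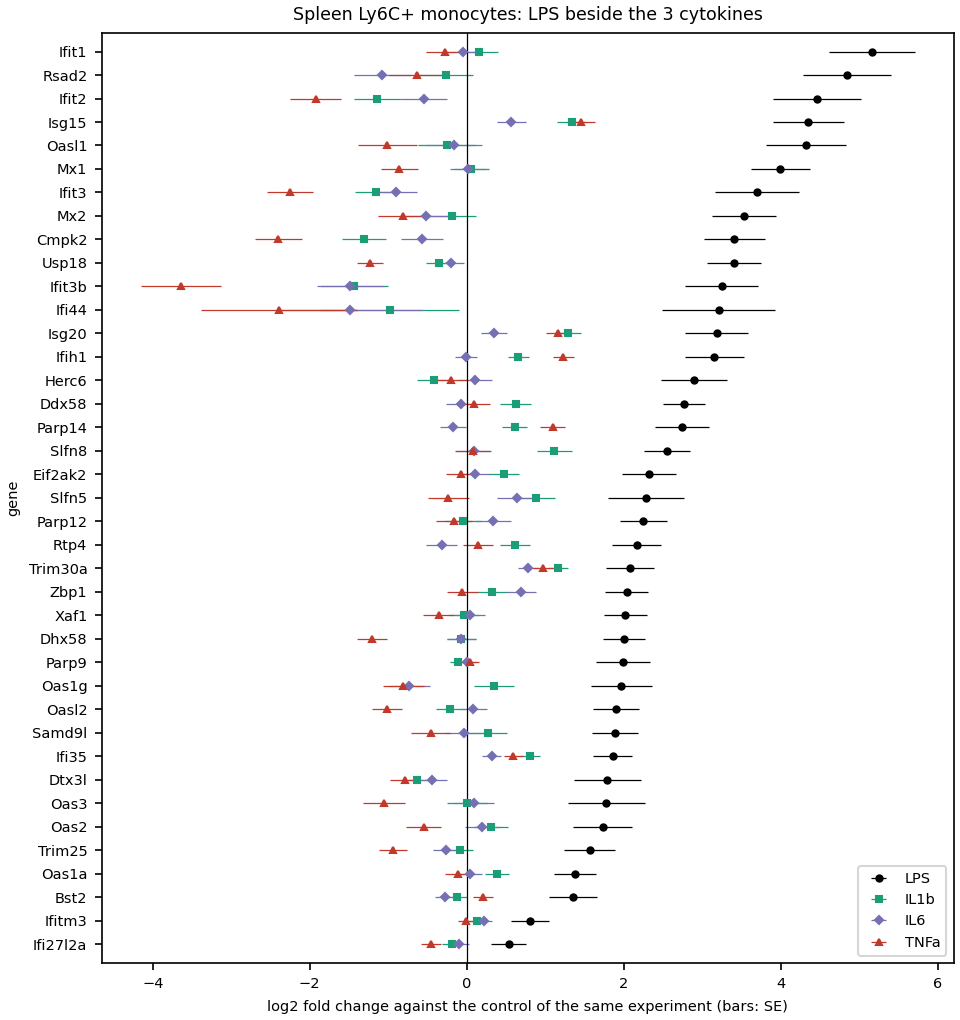
Log2 fold change (points, bars are SE) of each gene in spleen Ly6C+ monocytes after LPS (black), IL1b (green), IL6 (purple) and TNFa (red), each against the control of its own experiment. The LPS points lie right of 0 for all 39 genes, and Ifit2, Ifit3, Ifit3b and Cmpk2 lie right with LPS and left with TNFa.

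Upstream in the pathway, transcripts of the type I interferons themselves were scarcely detected. Ifnb1 had a count in 11 of 209 libraries, 32 counts in all and at most 6 in 1, and it passed the filter in no fit. The 18 type I interferon genes together had at most 25 counts in a library (Treg after IL1b), 52 libraries had 0, and the LPS libraries held 2 to 3 counts against 5 to 14 in their controls. Of these genes Ifnk had the most counts, 252 over 99 libraries, and its highest count, 13, was in an LPS control. These sums are too small, and too dependent on Ifnk, to compare LPS with its controls. The samples do not show interferon made by cells that were not sorted, or before the time of sorting.

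The receptor and transducer genes, 12 at most in a fit, were also raised by TNFa in several types: 8 of 12 in GN (beside 18.5% of all genes), 7 of 11 in T.4 (3.6%), 6 of 11 in MFrp (11.5%) and in Treg (2.81%) and 5 of 11 in MFpc (26.6%). The other types had 0 to 4 raised, and TNFa lowered 3 of 10 in NK cells, 2 of 11 in MC and MZB and 1 in Mo.6C+ and DC.8+. Shares of all genes for these types are given above with the members. Stat2 rose with TNFa in T.4 (1.32 on the log2 scale), MFrp (1.15), Treg (0.83) and Tgd (0.68), and was 0.14 in pDC and 0.33 in MZB, where it was not called. Ifnar1 rose in GN (1.31), MFpc (1.28), T.4 and Treg and fell in MZB (-0.53). In the monocyte time course Stat2 was lower at 2, 4 and 8 h and Irf7 and Irf9 were lower at 8 h, with log2 fold changes of -2.38 and -0.88. LPS raised Irf7 (2.43), Stat2 (2.21) and Irf9 (0.75).

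Among inhibitors, Socs1 and Socs3 block JAK kinases. Of 7 inhibitor genes TNFa raised 7 in GN, 5 in MFpc and Mo.6C+ and 4 in MFrp, DC.8+, pDC and T.4, and lowered 1 in Treg. Socs3 rose with TNFa by 5.91 in MFrp, 4.35 in Mo.6C+ and 4.02 in MZB on the log2 scale. Of the 14 interferon-inducible GTPases, which interferon gamma also induces, 9 rose and 0 fell with TNFa in Mo.6C+, beside the 6 members that rose and 16 that fell. They rose with TNFa in 13 of 14 tested in MFrp and T.4 and 12 of 14 in Tgd, and 14 of 14 rose in T.4 with IL1b. In the monocyte time course 3 of these 14 rose and 0 fell at 2 h and 0 rose and 6 fell at 8 h, and LPS raised 12 of 14. For each inhibitor and GTPase count the shares of all genes, which differ between cell types, are given above with the members.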

How the data were processed

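RNA-seq libraries of 1000 sorted cells were made from 209 samples in 67 groups taken from their labels. The authors deposited 1 table of raw read counts per gene for all libraries; the submitters' processing notes name STAR 2.7.3a, featureCounts and the genome build mm10, and its strand and multi-mapping settings are not known here. Library totals ran from 1094567 to 9291121 counts.

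The counts were fitted per cell type and experiment with edgeR 4.0.16 (R 4.3.3), with TMM factors, filterByExpr (minimum count 10), the quasi-likelihood test (2-sided) and Benjamini-Hochberg adjustment over all genes of a fit at 0.05, the SE being the log2 fold change over the root of F. All groups of a cell type shared 1 estimate of the spread. Joint fits over cell types, or over the screen and the LPS experiment, tested differences of responses. CPM are on the TMM scale of their own fit, so PBS levels from the fit of all 14 cell types differ from those beside a response. The test was tried on simulated counts with 200 genes changed.

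The members, lists and tests were chosen with earlier results of these data known. Values of every library are given for members that lead a cell type, cytokine, time course or LPS by called size or number of calls; Trim25 and Ifih1 in the screen, Dhx58 and Mx1 in macrophages at 2 h, Oas3 and Samd9l at 8 h and Ifi27l2a and Ifitm3 with LPS were chosen after their values were seen. Alternatives were RLE factors, no filter, DESeq2 1.42.0, only the groups compared, the replicate number as a block and each library left out, and, chosen after seeing the data, MFrp without PBS libraries 1 to 3. Deviations of same-numbered libraries had a median correlation between -0.13 (T.8) and 0.06 (DC.8+) over the screen fits. Differently numbered ones had 0.10 and -0.02 in these 2 fits. Single same-numbered pairs reached 0.49 in T.8, and these values do not show whether libraries were paired by number. The 251 replicate pairs held 0 identical ones. Gene positions are from GENCODE vM21.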

Additional observations from a re-analysis of the deposited data

Results flagged for a closer look

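The mean log2 CPM of the members was far from its group in 2 of the 14 groups of 4 or more libraries tested, where chance gives about 1 in 20: PBS library 4 of Tgd had 5.17 against 5.73 to 5.85 in the others, and PBS library 4 of T.4 had 4.74 against 5.38 to 5.59.

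Responses differed between cell types, by a joint fit over the screen, for 25 members with IL1b, 11 with IL6 and 29 with TNFa, and leaving out the libraries of 1 number took these to 11 to 26, 1 to 10 and 25 to 30. The members with the smallest adjusted p were Usp18 (5.41e-19) and Trim25 (4.69e-18) with TNFa, Samd9l (4.60e-08) and Zbp1 (1.48e-06) with IL1b, and Oas2 (7.30e-06) and Isg20 (2.81e-05) with IL6. Responses also differed between agents in monocytes: the response to LPS was higher than that to IL1b for 35 members, to IL6 for 35 and to TNFa for 39.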

How the results depend on the processing

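Nothing reversed its direction. The 125 rises and 41 falls with TNFa, the 16 falls with IL1b and the 38 rises with LPS stayed within 1.5 times under every alternative. With the replicate block, 68 rises were called with IL1b in place of 105, and 10 with IL6 in place of 23; no filter gave 41 rises with IL6. The single fall with IL6 became 2 with RLE factors, 17 with no filter, 9 with the block, 7 with only the groups compared and 11 with DESeq2, and 0 to 5 without 1 replicate. IL1b against IL6 gave 94 calls with no filter and 97 with DESeq2 in place of 57, and the response to TNFa differed between the experiments for 1 member in monocytes and 2 in macrophages with no filter in place of 0. Leaving out 1 replicate gave 1 to 8 rises (6) over the monocyte time course, 5 to 14 rises (13) and 10 to 29 falls (21) over the macrophage one, 19 to 38 (35) and 23 to 39 (39) for LPS against IL1b and TNFa, and 11 to 26 (25) and 1 to 10 (11) for the dependence of the IL1b and IL6 responses on cell type. Of 1667 values of single members under the other settings 64 lost and 44 gained a call, and of 4301 without 1 library 258 lost and 20 gained one; the cause was not tested. Cytokine groups of 2 or 3 libraries limit what can be called.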
